A study of Mus musculus with 12 samples.

Results

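The transcripts described here were those that the cytoplasm of growing mouse oocytes held in WT cells and that were at least 4-fold lower in cells without MTR4. They were chosen by their cytoplasmic values. The mean of FPKM + 1 over the 3 Mtr4-null cytoplasms had to be at least 4-fold below that over the 3 WT cytoplasms (a log2 ratio of -2 or less), and the highest Mtr4-null value had to lie below the lowest WT value. Of 23235 gene entries, 75 (0.323%) met both conditions. The rule then left out 7 of them by name: Skiv2l2, the deleted gene itself, Pnpla3, the major histocompatibility gene H2-Aa, the histone genes Hist2h2ac, Hist2h2bb and Hist2h3b, and Mir365-2. The remaining 68 entries (0.293%) are called the members. FPKM divides the sequenced fragments of a gene by its transcript length and by the size of the library, so it is a share of a library and not an amount per cell.

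MTR4 is an RNA helicase of the nucleus. It unwinds RNA and threads it into the nuclear exosome, the complex of ribonucleases that trims ribosomal and small nucleolar RNA and degrades promoter-derived, unspliced and other short-lived transcripts. It works with partner proteins in the TRAMP complex, the NEXT complex and the PAXT connection. A growing oocyte transcribes heavily and stores much of its messenger RNA in the cytoplasm, and a transcript reaches that store only after synthesis, processing and export from the nucleus.

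The 12 libraries came from oocytes of mice at day 14. There were 3 libraries each of Mtr4-null cytoplasm, WT cytoplasm, Mtr4-null nuclei and WT nuclei by the labels, whereas the series' own design text speaks of duplicates. Each n of 3 follows the labels, and which of these holds was not settled here. Nucleus and cytoplasm had been parted by micromanipulation, and each library was made from 10 nuclei or 10 cytoplasms after removal of ribosomal RNA. How the deletion was made, and the promoter of any Cre, is not given in the sources used here. The labels do not tell whether replicate libraries were made from different mice, so a p-value below sets a difference only against the spread of replicate libraries, which may be technical.

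Skiv2l2, the symbol of Mtr4 in the table, was at 1.04, 0.315 and 0.700 FPKM in Mtr4-null cytoplasms, against 21.1, 19.4 and 20.2 FPKM in WT cytoplasms. In the nuclei labelled Mtr4-null it was at 7.98, 0.182 and 1.12 FPKM, against 6.06, 2.45 and 5.37 FPKM in the WT nuclei. The first of these nuclei, the library labelled Mtr4-null nucleus 1, therefore goes against its label, and the counts of nuclear calls are given with and without it. Mtr4-null nucleus replicate 3 was in turn most like a cytoplasm, with a rank correlation over genes of at most 0.931 with an Mtr4-null cytoplasm and of 0.792 to 0.806 with the WT nuclei. Mtr4-null nucleus replicate 2 was also closer to an Mtr4-null cytoplasm (at most 0.811) than to the WT nuclei (0.7146 to 0.7465). Depth, estimated from the smallest values and relative to WT cytoplasm replicate 1, was 0.518 to 1.57 in the cytoplasms and only 0.129 to 0.392 in the nuclei. A single small RNA, Scarna2, took 58% to 81.7% of the summed FPKM of each nucleus library. Oocyte markers were high in all groups, with the 13 markers summing to 11850 to 17660 FPKM in Mtr4-null cytoplasms, 12200 to 12810 FPKM in WT cytoplasms, 3433 to 12820 FPKM in nuclei labelled Mtr4-null and 3818 to 7581 FPKM in WT nuclei.

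In WT cytoplasm the members spanned a wide range of levels, and in Mtr4-null cytoplasm most averaged below 1 FPKM. Their mean WT cytoplasmic level lay between 3.38 and 100.6 FPKM, with a median of 10.5 FPKM. The mean in Mtr4-null cytoplasm had a median of 0.696 FPKM and reached at most 17.3 FPKM. Of the 68 members, 31 stayed below 1 FPKM in all 3 Mtr4-null cytoplasms. Another way to see the size is the sum over all members, which was 146.6, 101.2 and 114.5 FPKM in Mtr4-null cytoplasms, against 1108, 1297 and 1273 FPKM in WT cytoplasms. These values follow from the rule and carry no test. Since the libraries are bulk samples, less RNA per cell and fewer cells with the RNA cannot be told apart.

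**Figure D1:**
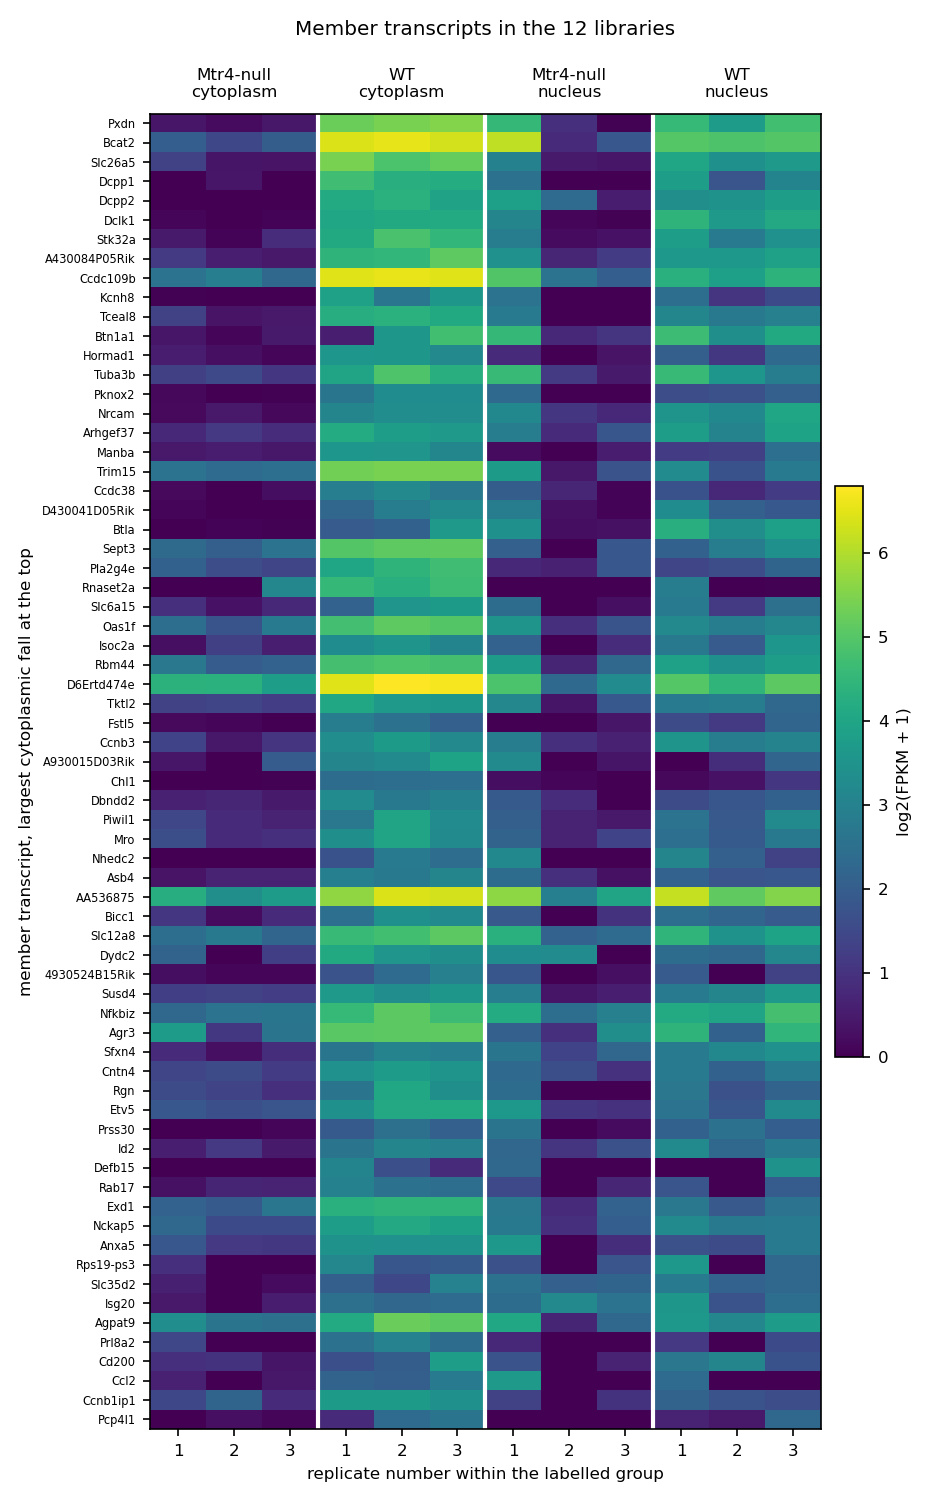
Level of each of the 68 members (rows, the largest cytoplasmic log2 ratio at the top) in the 12 libraries (columns, by labelled group and replicate), as log2(FPKM + 1). The dark Mtr4-null cytoplasm columns and bright WT cytoplasm columns are the rule; in the nucleus the library labelled Mtr4-null nucleus 1 looks like the WT nuclei, while replicates 2 and 3 are dark.

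Apart from the Dcpp genes, described with their copies further on, the members at the top of the list were a matrix enzyme, a metabolic enzyme, a membrane motor protein and a kinase. Their log2 ratios in the cytoplasm were -5.05 for Pxdn, -4.60 for Bcat2, -4.42 for Slc26a5 and -4.05 for Dclk1. Their promoters are shown so that the start regions of the most reduced members can be set side by side. Each runs from 250 bases before to 50 bases after the first listed transcription start in RefSeq on build GRCm38.p6 and was matched by symbol, since the expression table itself used mm9. Bcat2 and Dclk1 have 2 listed starts each, and which start oocytes use was not tested. Capitals mark matches on either strand to a GC box (GGGCGG), to an E-box (CANNTG) or to a homeodomain core (TAATTG). Pxdn lies at chr12:29937786-29938085 on the plus strand, Bcat2 at chr7:45569903-45570202 on the plus strand, Slc26a5 at chr5:21865555-21865854 on the minus strand and Dclk1 at chr3:55242114-55242413 on the plus strand.

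Pxdn: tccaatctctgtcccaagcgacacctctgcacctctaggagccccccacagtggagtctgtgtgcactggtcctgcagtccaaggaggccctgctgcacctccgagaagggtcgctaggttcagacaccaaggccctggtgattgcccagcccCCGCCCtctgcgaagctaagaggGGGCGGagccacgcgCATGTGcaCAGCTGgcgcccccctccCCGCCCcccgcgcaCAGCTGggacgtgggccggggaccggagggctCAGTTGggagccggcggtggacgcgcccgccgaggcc
Bcat2: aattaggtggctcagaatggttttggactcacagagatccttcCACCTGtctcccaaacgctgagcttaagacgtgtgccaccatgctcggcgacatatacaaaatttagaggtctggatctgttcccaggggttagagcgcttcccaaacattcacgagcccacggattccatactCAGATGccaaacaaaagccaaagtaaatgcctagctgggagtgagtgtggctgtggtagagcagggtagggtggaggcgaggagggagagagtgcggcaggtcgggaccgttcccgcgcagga
Slc26a5: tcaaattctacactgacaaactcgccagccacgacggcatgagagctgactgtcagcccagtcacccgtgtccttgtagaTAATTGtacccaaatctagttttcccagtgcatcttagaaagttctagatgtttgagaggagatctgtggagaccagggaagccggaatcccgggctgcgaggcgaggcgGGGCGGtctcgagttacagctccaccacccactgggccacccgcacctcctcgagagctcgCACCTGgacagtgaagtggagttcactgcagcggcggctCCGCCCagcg
Dclk1: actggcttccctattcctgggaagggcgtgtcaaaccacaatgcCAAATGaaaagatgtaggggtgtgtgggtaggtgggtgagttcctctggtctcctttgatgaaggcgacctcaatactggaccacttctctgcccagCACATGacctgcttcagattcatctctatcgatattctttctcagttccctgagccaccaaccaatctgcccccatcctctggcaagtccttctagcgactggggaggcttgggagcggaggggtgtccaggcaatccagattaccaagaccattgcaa

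Of the motifs searched, the E-box alone was shared by all 4 promoters, and 72.2% of the 27025 RefSeq promoters hold it. The Pxdn window had 4 E-boxes, the Bcat2 and Dclk1 windows 2 each, and the Slc26a5 window 1. GC boxes stood 3 times in the Pxdn window and 2 times in the Slc26a5 window, against 35.9% of all promoters with at least 1. The homeodomain core was found once, in Slc26a5 (8.15% of all promoters). A TATA box (TATAAA, 14.2% of all promoters) and a cAMP response element (TGACGTCA, 1.88%) were searched for on both strands as well and matched none of the 4 windows. No motif overlapped another. The windows also differed in CG content, with 21 CG pairs in Pxdn, 18 in Slc26a5, 13 in Bcat2 and 5 in Dclk1, against a median of 7 over all promoters. Only 49 of the 68 members (72.1%) had a promoter in the table, too few for a motif share over the members.

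Pxdn, which encodes peroxidasin, the peroxidase that cross-links collagen IV in basement membranes, was at 0.323, 0.153 and 0.356 FPKM in Mtr4-null cytoplasms, against 37.4, 41.8 and 45.1 FPKM in WT cytoplasms. Bcat2, the mitochondrial aminotransferase that opens the breakdown of leucine, isoleucine and valine, was at 3.06, 1.80 and 2.98 FPKM in Mtr4-null cytoplasms, against 86.2, 93.2 and 80.0 FPKM in WT cytoplasms. For both genes every Mtr4-null library was a small fraction of any WT library. Slc26a5 encodes prestin, the motor protein of cochlear outer hair cells, and was at 1.5, 0.304 and 0.276 FPKM in Mtr4-null cytoplasms, against 42.5, 28.2 and 35.3 FPKM in WT cytoplasms. Dclk1, a microtubule-binding kinase of the doublecortin family, was at 0.0576, 0 and 0.0429 FPKM in Mtr4-null cytoplasms, against 15.0, 16.7 and 16.7 FPKM in WT cytoplasms. Dclk1 was thus all but missing from every Mtr4-null cytoplasm.

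Some abundant members averaged several FPKM in Mtr4-null cytoplasms, whereas Pxdn and Slc26a5 averaged 0.277 and 0.694 FPKM there. D6Ertd474e, a noncoding RNA and the highest member in WT cytoplasm, was at 19.7, 19.1 and 13.2 FPKM in Mtr4-null cytoplasms, against 87.2, 110.5 and 104.2 FPKM in WT cytoplasms. Ccdc109b, now Mcub, a subunit that restrains the mitochondrial calcium uniporter, was at 5.05, 6.53 and 3.90 FPKM in Mtr4-null cytoplasms, against 87.6, 93.8 and 88.2 FPKM in WT cytoplasms. AA536875, another noncoding RNA, was at 17.9, 9.27 and 12.2 FPKM in Mtr4-null cytoplasms, against 49.5, 86.4 and 79.3 FPKM in WT cytoplasms. In each of the 3 the Mtr4-null libraries held a measurable level well below every WT library. D6Ertd474e and AA536875 were also among the highest members in the nucleus. D6Ertd474e was at 28.5, 3.97 and 8.72 FPKM in the nuclei labelled Mtr4-null, against 31.2, 21.0 and 33.0 FPKM in the WT nuclei. AA536875 was at 49.0, 6.67 and 14.8 FPKM in the nuclei labelled Mtr4-null, against 72.7, 34.4 and 45.8 FPKM in the WT nuclei. Replicates 2 and 3 labelled Mtr4-null were below every WT nucleus for both. Trim15, a tripartite-motif protein, averaged 4.62 ± 0.37 FPKM in Mtr4-null cytoplasms and 41.1 ± 1.34 FPKM in WT cytoplasms (SD, n = 3 each). Agr3, of the protein disulfide isomerase family, averaged 6.15 ± 5.60 FPKM in Mtr4-null cytoplasms and 33.1 ± 0.44 FPKM in WT cytoplasms, the first with a wide spread of 12.2, 1.14 and 5.12 FPKM. Sept3, a septin best known from neurons, averaged 4.09 ± 0.89 FPKM in Mtr4-null cytoplasms and 32.7 ± 1.72 FPKM in WT cytoplasms.

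At the other end, 3 members were listed at 0 in every Mtr4-null cytoplasm. Dcpp2, a secreted protein known from mouse salivary glands, was at 16.8, 19.4 and 14.2 FPKM in WT cytoplasms. Nhedc2, now Slc9b2, a sodium-proton exchanger, was at 2.28, 5.99 and 4.37 FPKM there. Defb15, a beta-defensin, was at 7.35, 2.18 and 0.801 FPKM. No fold is given against a group listed at 0.

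Not every member had an even WT level. In 17 of the 68 the WT cytoplasms themselves spread by at least 2-fold. Btn1a1, butyrophilin of the milk fat globule membrane, was at 0.319, 0.0862 and 0.402 FPKM in Mtr4-null cytoplasms, against 0.493, 11.1 and 25.8 FPKM in WT cytoplasms. WT cytoplasm replicate 1 stood barely above the Mtr4-null libraries for this gene. Btla, an inhibitory receptor of lymphocytes, was at 2.85, 3.33 and 11.8 FPKM in WT cytoplasms, and Cd200, a ligand that restrains myeloid cells and its neighbour on the chromosome, at 2.17, 3.05 and 13 FPKM. For both genes WT cytoplasm replicate 3 was the high one.

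The threshold cut through a continuous range. Just inside it stood Ccl2 (a chemokine, log2 ratio -2.01), Ccnb1ip1 (-2.01) and Pcp4l1 (-2.0). Just outside stood Egfr, the receptor of epidermal growth factor (-1.98), Dusp4, a phosphatase of MAP kinases (-1.97), and Prss35, a serine protease homologue known from the ovary (-1.95). Egfr was at 2.54, 1.58 and 2.28 FPKM in Mtr4-null cytoplasms, against 10.9, 12.3 and 10.9 FPKM in WT cytoplasms, so its libraries were as clearly apart as those of the members beside it.

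When each of the 6 cytoplasm libraries was left out of the rule in turn, 62 to 84 entries were chosen, and 57 to 66 of them were among the 68. Leaving out Mtr4-null cytoplasm replicate 1 gave 84 entries with 66 of the members, and leaving out Mtr4-null cytoplasm replicate 2 gave 62 entries with 57 of them. Each of these choices shares the remaining 5 libraries with the rule, so they describe how far the list depends on 1 library and carry no test.

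The nuclear values were not used by the rule. Apart from the library labelled Mtr4-null nucleus 1, the nuclei labelled Mtr4-null were closer to an Mtr4-null cytoplasm than to the WT nuclei. In Mtr4-null cytoplasm the members were low by the rule. Low values in these nuclei therefore cannot tell whether the members were low in the nucleus itself. Unless nuclei alone are named, the fits below also take their spread from the cytoplasms, which the rule did use. In WT oocytes most members were found in both compartments. The mean in WT nuclei had a median of 5.41 FPKM, and 57 members were at 1 FPKM or more in all 3 WT nuclei. The log2 ratio of WT nuclear over WT cytoplasmic FPKM + 1 had a median of -1.07 over the members and -0.85 over the 13157 genes tested. Its upper quartile was -0.39 over the members and 0.06 over the genes tested. These cytoplasmic libraries chose the members, so the levels carry no test. In 8 members the WT nuclear mean was above the WT cytoplasmic mean: Btla, Btn1a1, Isg20, Nrcam, Prss30, Rps19-ps3, Sfxn4 and Slc35d2.

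In the nuclei labelled Mtr4-null the lead members split by library. Pxdn was at 22.2, 0.880 and 0.0285 FPKM in replicates 1, 2 and 3, against 22.4, 12.2 and 25.5 FPKM in the WT nuclei. Bcat2 was at 70.0, 0.762 and 2.59 FPKM, against 31.1, 29.0 and 30.7 FPKM in the WT nuclei. For both genes the library labelled Mtr4-null nucleus 1 was at or above the lowest WT nucleus, and replicates 2 and 3 were far below every WT nucleus. Dclk1 was at 7.59, 0.0836 and 0.0271 FPKM in the nuclei labelled Mtr4-null, against 20.3, 11.5 and 16.4 FPKM in the WT nuclei. Slc26a5 was at 7.0, 0.409 and 0.331 FPKM, against 15.2, 9.75 and 11.9 FPKM in the WT nuclei. For these 2 genes all 3 nuclei labelled Mtr4-null lay below all 3 WT nuclei, replicate 1 the least.

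**Figure D2:**
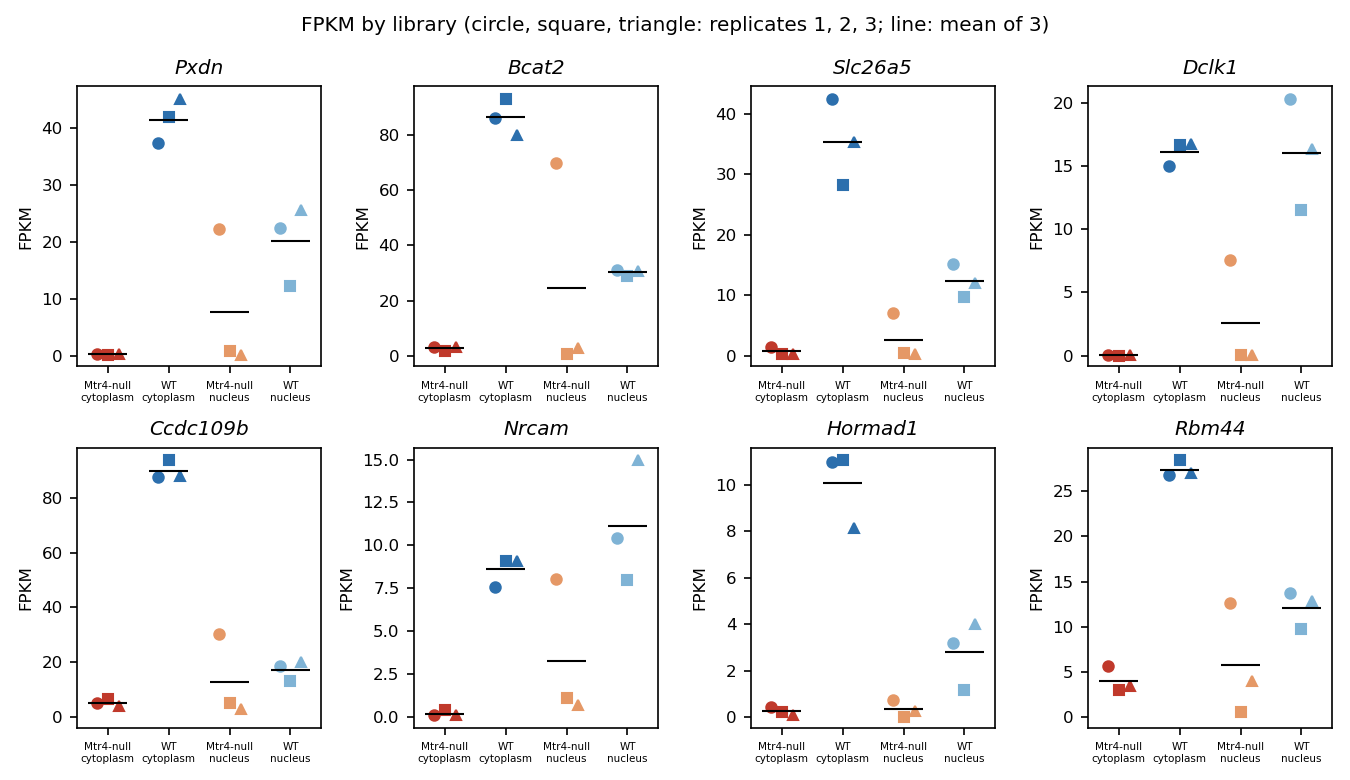
FPKM (vertical axis, linear, own scale for each gene) of 8 members in the 4 labelled groups, 1 point per library and a line at the mean of 3. In every panel the Mtr4-null cytoplasms lie below the WT cytoplasms; in the nuclei labelled Mtr4-null the circle (replicate 1) lies apart from the square and triangle, for Bcat2 at 70.0 FPKM against 0.762 and 2.59 FPKM.

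With all 12 libraries in a limma fit and Benjamini-Hochberg adjustment over all genes tested, 3 of the 68 members were lower in the nuclei labelled Mtr4-null and none was higher. Of all genes tested, 1.75% were called lower and 0.517% higher. The members called were Dclk1 (log2 difference -2.97 ± 0.61 SE, adjusted p = 0.0221), Fstl5 (-1.5 ± 0.34, adjusted p = 0.0320) and Slc26a5 (-2.41 ± 0.57, adjusted p = 0.0389). Fstl5, a follistatin-like secreted protein, was at 0, 0 and 0.337 FPKM in the nuclei labelled Mtr4-null, against 1.93, 1.21 and 3.64 FPKM in the WT nuclei. These calls were close to the threshold: without Mtr4-null nucleus replicate 2 none of the members was called, beside 1.44% of all genes tested as lower and 2.04% as higher. None was called without WT nucleus replicate 1, beside 0.768% of all genes tested as lower and 0.182% as higher, or without WT nucleus replicate 3, beside 1.06% and 0.479%. At an unadjusted limma p below 0.05, 20, 26 and 28 members were lower in these 3 fits, beside 7.06%, 7.37% and 7.09% of all genes tested. Without Mtr4-null nucleus replicate 3, Fstl5 and Manba were called, beside 2.53% of all genes tested as lower and 0.441% as higher. With the nucleus libraries alone, none of the members was called, beside 5 of the 13157 genes tested. With all 12 libraries, 37 members (54.4%) were lower at an unadjusted p below 0.05, against 9.61% of all genes tested. The log2 difference was below 0 in 65 members (95.6%), against 47.2% of all genes tested, and its median was -1.14 over the members and 0.04 over all genes tested. Leaving out the library labelled Mtr4-null nucleus replicate 2 brought the member median to -0.82, and leaving out replicate 3 to -1.02.

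Without the library labelled Mtr4-null nucleus 1, 49 of the 68 members (72.1%) were called lower and none higher, against 5.65% lower and 4.58% higher among all genes tested. The median difference was then -1.69 over the members and 0.09 over all genes tested. The largest differences were those of Dclk1 at -3.98 ± 0.33 (limma adjusted p = 5.5e-05), Pxdn at -3.86 ± 0.40 (adjusted p = 0.00018) and Bcat2 at -3.63 ± 0.36 (adjusted p = 0.00018). Btla followed at -3.54 ± 0.47, Slc26a5 at -3.26 ± 0.39, Btn1a1 at -3.15 ± 0.85 and Stk32a, a serine/threonine kinase, at -3.08 ± 0.40. This fit takes its spread from all 4 groups, among them the cytoplasms that chose the members, so the members' spread is not independent of the rule. With the 5 nucleus libraries alone, 6 members were called (Bcat2, Btla, Dclk1, Pxdn, Slc26a5 and Tceal8), against 0.19% of all genes tested as lower. Without replicates 1 and 3 together, replicate 2 is the only nucleus labelled Mtr4-null and is assumed to vary like the libraries of the other groups. In that fit 49 members were called lower, 46 of them among those above, beside 25.2% of all genes tested called lower and 4.96% higher.

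**Figure D3:**
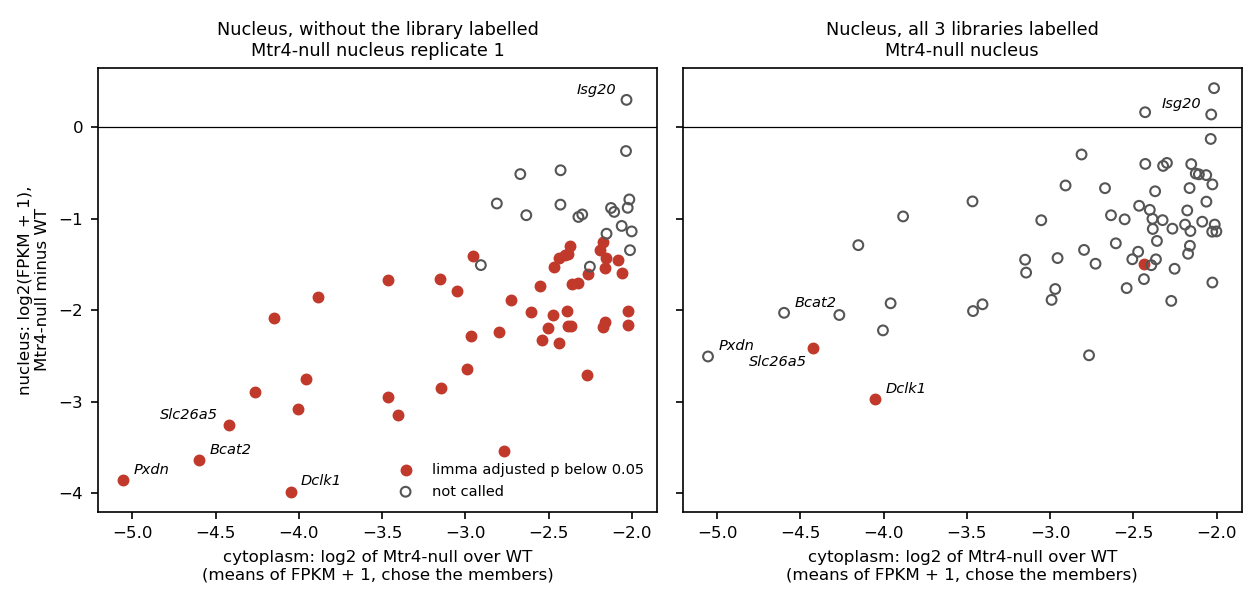
Nuclear log2(FPKM + 1) difference, Mtr4-null minus WT (vertical axis), of each member against its cytoplasmic log2 ratio (horizontal axis, the values that chose the members), without the library labelled Mtr4-null nucleus 1 (left) and with all 3 libraries (right). Filled points have a limma adjusted p below 0.05: 49 on the left, 3 on the right; Isg20 stands above 0 in both panels.

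Each nucleus library was then set against the WT nuclei by itself. In the library labelled Mtr4-null nucleus 1 the members lay at WT level, with a median difference of -0.05 beside -0.03 over all genes tested. In Mtr4-null nucleus replicate 2 the median was -1.99 over the members and -0.50 over all genes tested. In Mtr4-null nucleus replicate 3 it was -1.57 over the members, while all genes tested stood at 0.73. Among the WT nuclei, each against the other 2, the members' medians were 0.32, -0.60 and 0.32 beside 0.20, -0.45 and 0.28 over all genes tested. Replicates 2 and 3 labelled Mtr4-null thus departed in opposite directions for genes in general and in the same direction for the members.

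**Figure D4:**
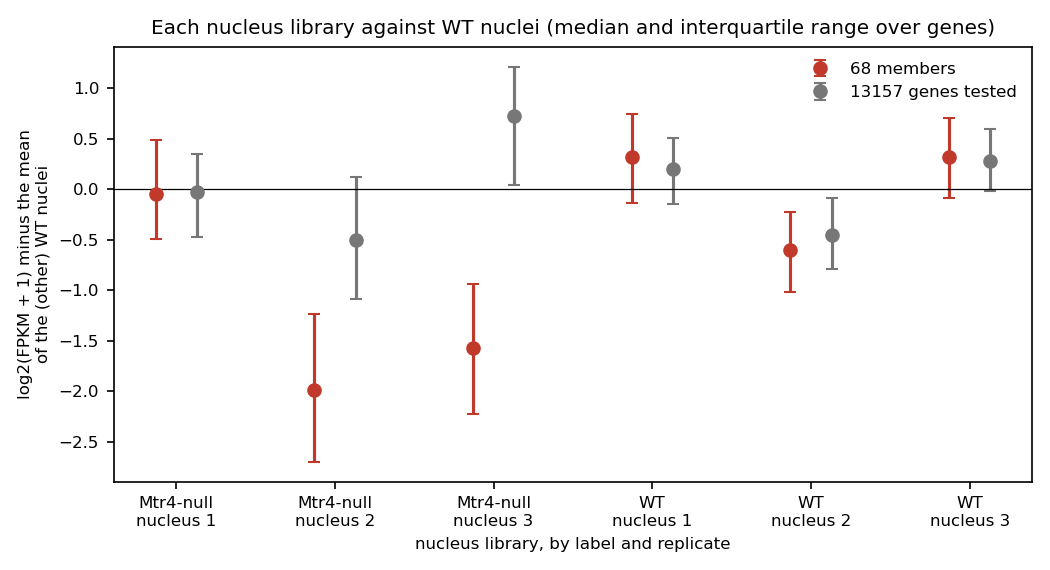
Median (points) and interquartile range (bars) of the log2(FPKM + 1) difference of each nucleus library from the mean of the WT nuclei (for a WT nucleus, the other 2), over the 68 members and over all genes tested. The members stand apart from all genes in Mtr4-null nucleus replicates 2 and 3 (-1.99 and -1.57) and not in the library labelled Mtr4-null nucleus 1 (-0.05).

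Counts of libraries that do not overlap gave the same picture. Mtr4-null nucleus replicates 2 and 3 both lay below all 3 WT nuclei in 54 members (79.4%), against 11.2% of all genes tested. Among the 5558 genes whose mean in WT nuclei lay between 2.81 and 10.8 FPKM, the interquartile range of the members, the share was 12.3%. All 3 nuclei labelled Mtr4-null lay below all 3 WT nuclei in 15 members (22.1%), against 6.70% of all genes tested. Taken alone, Mtr4-null nucleus replicate 2 lay below all WT nuclei in 59 members, but it did so in 50.6% of all genes tested as well. Mtr4-null nucleus replicate 3 lay below all WT nuclei in 55 members and above them in none, against 13.6% below and 62.4% above among all genes tested. Replicate 2 was at or below the highest Mtr4-null cytoplasm in 52 members and replicate 3 in 51, beside 89.1% and 77.6% of all genes tested. The part of the likeness of replicates 2 and 3 to Mtr4-null cytoplasm in these counts was not tested. The library labelled Mtr4-null nucleus 1 lay below the WT nuclei in 17 members, within their range in 31 and above it in 20, near the 25.7% below and 23.6% above of all genes tested. Members listed at 0 numbered 2, 25 and 13 in the nuclei labelled Mtr4-null replicates 1, 2 and 3, against 2, 6 and 1 in the WT nuclei. The share of all genes tested listed at 0 was not counted, and replicate 2 had the lowest depth of all libraries (0.129). Nothing about the members is therefore read from these counts.

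The members fell into several roles, given here by groups that were drawn up with their values known and that cover 42 of the 68. The counts of calls by role stand beside the 72.1% of all members and the 5.65% of all genes tested that limma called lower without the library labelled Mtr4-null nucleus 1. With all libraries the shares were 4.41% of members and 1.75% of all genes tested. Counts at an unadjusted limma p below 0.05 with all libraries stand beside 54.4% of members and 9.61% of all genes tested. No role was tested against another. The germline and meiosis group had 6 members, of which 4 were called lower in the nucleus without the library labelled Mtr4-null nucleus 1. With all libraries none was called, and 5 were lower at an unadjusted p below 0.05. Hormad1, a protein of the meiotic chromosome axis, was at 0.445, 0.214 and 0.0831 FPKM in Mtr4-null cytoplasms, against 11.0, 11.1 and 8.15 FPKM in WT cytoplasms. In the nuclei labelled Mtr4-null it was at 0.758, 0 and 0.280 FPKM, against 3.20, 1.17 and 4.03 FPKM in the WT nuclei, so here the library labelled Mtr4-null nucleus 1 was also below all WT nuclei. Rbm44, an RNA-binding protein of germ cell bridges, was at 5.62, 2.95 and 3.42 FPKM in Mtr4-null cytoplasms, against 26.8, 28.5 and 27.0 FPKM in WT cytoplasms. Ccnb3, the cyclin that drives anaphase of the first meiotic division in mouse oocytes, averaged 0.980 ± 0.61 FPKM in Mtr4-null cytoplasms and 9.71 ± 1.99 FPKM in WT cytoplasms. Piwil1, a PIWI protein that binds piRNAs in mouse testis, averaged 1.02 ± 0.63 FPKM in Mtr4-null cytoplasms and 9.63 ± 4.56 FPKM in WT cytoplasms. Exd1, a piRNA pathway protein, and Ccnb1ip1, which is needed for meiotic crossovers, were the 2 of this group that were not called in the nucleus (limma adjusted p = 0.208 and 0.0695, or 0.594 and 0.193 with all libraries).

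Metabolism and transport was the largest role, with 13 members, and 11 were called lower in the nucleus without the library labelled Mtr4-null nucleus 1, against 1 (Slc26a5) with all libraries. At an unadjusted limma p below 0.05 with all libraries, only 4 of the 13 were lower. Besides Bcat2, Slc26a5, Ccdc109b and Nhedc2 it held the potassium channel Kcnh8, which was at 0.0344, 0 and 0 FPKM in Mtr4-null cytoplasms, against 13.9, 5.40 and 11.2 FPKM in WT cytoplasms. Manba, the lysosomal beta-mannosidase, was at 0.392, 0.443 and 0.344 FPKM in Mtr4-null cytoplasms, against 10.9, 10.7 and 7.75 FPKM in WT cytoplasms. Agpat9, now Gpat3, an enzyme of triglyceride synthesis, was at 9.12, 5.18 and 4.71 FPKM in Mtr4-null cytoplasms, against 16.9, 36.9 and 32.9 FPKM in WT cytoplasms. The Mtr4-null residue of Agpat9 was thus larger than that of Kcnh8 or Manba. Slc12a8, of the cation-chloride cotransporter family, averaged 4.64 ± 1.07 FPKM in Mtr4-null cytoplasms and 27.2 ± 5.17 FPKM in WT cytoplasms. The amino acid transporter Slc6a15, the sideroflexin Sfxn4 and the transketolase-like Tktl2 were called lower in the nucleus as well. The 2 not called were the phospholipase Pla2g4e and the nucleotide sugar transporter Slc35d2. Slc35d2 was at 4.78, 3.27 and 3.53 FPKM in the nuclei labelled Mtr4-null, against 5.85, 3.43 and 3.81 FPKM in the WT nuclei, which overlap, although its cytoplasmic mean was 0.219 FPKM in Mtr4-null and 3.99 FPKM in WT.

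Adhesion, matrix and cell surface genes numbered 7, and 6 of them were called lower in the nucleus without the library labelled Mtr4-null nucleus 1. With all libraries none was called by limma, and 5 were lower at an unadjusted p below 0.05. Beside Pxdn, Btn1a1, Btla and Cd200 this group held Nrcam and Chl1, neural adhesion molecules of the L1 family, and the contactin Cntn4. Nrcam was at 0.127, 0.391 and 0.106 FPKM in Mtr4-null cytoplasms, against 7.60, 9.10 and 9.12 FPKM in WT cytoplasms. In the nuclei labelled Mtr4-null Nrcam was at 8.03, 1.10 and 0.715 FPKM, against 10.4, 8.01 and 15.0 FPKM in the WT nuclei. Only replicates 2 and 3 lay below the WT range. Chl1 was not called, being low in the WT nuclei themselves at 0.111, 0.269 and 1.10 FPKM, beside 4.27, 4.51 and 4.58 FPKM in WT cytoplasms.

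The 5 kinases, GTPases and their regulators were Dclk1, Stk32a, the guanine nucleotide exchange factor family member Arhgef37, the small GTPase Rab17 and Sept3. All but Rab17 were called lower in the nucleus without the library labelled Mtr4-null nucleus 1, and Dclk1 alone with all libraries. At an unadjusted limma p below 0.05 with all libraries, 4 were lower. Stk32a was at 0.418, 0.0393 and 0.824 FPKM in Mtr4-null cytoplasms, against 16.4, 27.8 and 21.5 FPKM in WT cytoplasms. Arhgef37 was at 0.726, 1.20 and 0.825 FPKM in Mtr4-null cytoplasms, against 17.3, 13 and 11.7 FPKM in WT cytoplasms. Both were well apart between the genotypes.

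All 4 transcription regulators were called lower in the nucleus without the library labelled Mtr4-null nucleus 1. With all libraries limma called none, and 2 were lower at an unadjusted p below 0.05. Pknox2, a TALE-class homeodomain protein, was at 0.10, 0 and 0.0336 FPKM in Mtr4-null cytoplasms, against 5.26, 8.91 and 8.84 FPKM in WT cytoplasms. Nfkbiz, an atypical IκB protein that acts in the nucleus, was at 3.90, 5.07 and 5.21 FPKM in Mtr4-null cytoplasms, against 22.5, 32.7 and 24.4 FPKM in WT cytoplasms. Etv5, an ETS factor, averaged 2.41 ± 0.23 FPKM in Mtr4-null cytoplasms and 14.3 ± 3.99 FPKM in WT cytoplasms, and Id2, an inhibitor of basic helix-loop-helix factors, averaged 0.690 ± 0.43 FPKM in Mtr4-null cytoplasms and 6.54 ± 1.24 FPKM in WT cytoplasms. Pknox2 was nearly absent without MTR4, while Nfkbiz kept several FPKM in each library.

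Of the 7 defence and secreted proteins, 3 were called lower in the nucleus without the library labelled Mtr4-null nucleus 1 (Dcpp1, Dcpp2 and Oas1f). With all libraries limma called none, and 2 were lower at an unadjusted p below 0.05. Oas1f, of the interferon-induced oligoadenylate synthetase family, was at 4.51, 2.41 and 5.96 FPKM in Mtr4-null cytoplasms, against 26.3, 33.5 and 30.3 FPKM in WT cytoplasms. Isg20, an interferon-induced exonuclease, was at 0.368, 0 and 0.439 FPKM in Mtr4-null cytoplasms, against 4.65, 3.73 and 4.19 FPKM in WT cytoplasms. In the nuclei labelled Mtr4-null Isg20 was at 4.32, 8.19 and 4.99 FPKM, against 11.1, 2.31 and 4.49 FPKM in the WT nuclei. Isg20 thus overlapped fully between the genotypes in the nucleus, with a log2 difference of 0.14 ± 0.43 (limma adjusted p = 0.905), or 0.30 ± 0.47 without the library labelled Mtr4-null nucleus 1 (adjusted p = 0.755). Ccl2 was at 11.5, 0 and 0 FPKM in the nuclei labelled Mtr4-null, against 4.17, 0 and 0 FPKM in the WT nuclei, so each group rested on 1 library. Its log2 difference was 0.43 ± 0.81 with all libraries (limma adjusted p = 0.835). It was -0.79 ± 0.58 without the library labelled Mtr4-null nucleus 1 (limma adjusted p = 0.442).

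Of the 26 members in no role group, 17 were called lower in the nucleus without the library labelled Mtr4-null nucleus 1, against 1 (Fstl5) with all libraries. The 9 not called were 4930524B15Rik, A930015D03Rik, Agr3, Ccdc38, Dydc2, Pcp4l1, Prl8a2, Rps19-ps3 and Trim15. A430084P05Rik, now Scimp, a membrane adaptor of immune cells, was at 1.22, 0.493 and 0.383 FPKM in Mtr4-null cytoplasms, against 20.5, 21.9 and 33.8 FPKM in WT cytoplasms. Tceal8, of the transcription elongation factor A-like family, was at 1.51, 0.273 and 0.370 FPKM in Mtr4-null cytoplasms, against 17.8, 19.4 and 16.7 FPKM in WT cytoplasms. Ccdc38, a coiled-coil protein, was at 0.131, 0 and 0.189 FPKM in Mtr4-null cytoplasms, against 6.47, 8.26 and 5.58 FPKM in WT cytoplasms. Each was low in every Mtr4-null library. In the nucleus, without the library labelled Mtr4-null nucleus 1, Tceal8 and A430084P05Rik were called lower (log2 differences of -2.95 ± 0.36 and -2.75 ± 0.37), and Ccdc38 was not (-0.83 ± 0.35, limma adjusted p = 0.155). With all libraries none of these 3 was called, at -2.01 ± 0.59 for Tceal8, -1.92 ± 0.55 for A430084P05Rik and -0.30 ± 0.43 for Ccdc38 (limma adjusted p = 0.0830, 0.0743 and 0.773). Anxa5, annexin A5, which binds phosphatidylserine, averaged 1.65 ± 0.82 FPKM in Mtr4-null cytoplasms and 10.1 ± 0.12 FPKM in WT cytoplasms. Bicc1, an RNA-binding protein, averaged 0.664 ± 0.48 FPKM in Mtr4-null cytoplasms and 7.53 ± 2.61 FPKM in WT cytoplasms, and Susd4, a complement regulator, averaged 1.42 ± 0.09 FPKM in Mtr4-null cytoplasms and 10.7 ± 1.39 FPKM in WT cytoplasms. Dydc2 was the 1 member that Mtr4-null nucleus replicate 2 held above all WT nuclei, at 8.94, 8.72 and 0 FPKM in the nuclei labelled Mtr4-null, against 4.31, 3.92 and 7.92 FPKM in the WT nuclei.

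Relatives of the lead members in the same pathway or family were mostly not members. Of the 27 genes of branched-chain amino acid catabolism, Bcat2 alone met the rule, and the median cytoplasmic log2 ratio of the 25 tested was -0.25. Its cytosolic counterpart Bcat1 was at 5.28, 4.82 and 3.44 FPKM in Mtr4-null cytoplasms, against 4.64, 5.39 and 3.96 FPKM in WT cytoplasms. The nearest to the rule was Bckdhb, a subunit of the branched-chain ketoacid dehydrogenase, at 2.71, 1.17 and 1.55 FPKM in Mtr4-null cytoplasms, against 9.98, 10.8 and 8.67 FPKM in WT cytoplasms. Bcat1 overlapped between the genotypes and Bckdhb did not.

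Among 24 genes of the collagen IV and peroxidasin matrix, Pxdn alone met the rule. Col4a1, a collagen IV chain, was at 1.04, 0.807 and 0.474 FPKM in Mtr4-null cytoplasms, against 3.70, 5.12 and 4.18 FPKM in WT cytoplasms. Lamb1, the most abundant laminin chain here, was at 344.0, 358.2 and 303.5 FPKM in Mtr4-null cytoplasms, against 413.3, 434.7 and 430.6 FPKM in WT cytoplasms. In the nucleus 1 of the 15 genes tested was called lower with all libraries (Col4a5), beside 1.75% of all genes tested. Without the library labelled Mtr4-null nucleus 1, 5 were lower (Pxdn, Col4a1, Col4a5, Lama4 and Nid1) and 1 was higher (Lamc1), beside 5.65% and 4.58% of all genes tested.

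Slc26a5 was the 1 member among 10 Slc26 transporters. Its relatives Slc26a2, a sulfate transporter, and Slc26a6, an anion exchanger, overlapped between the genotypes. Slc26a2 was at 45.3, 32.1 and 56.7 FPKM in Mtr4-null cytoplasms, against 39.6, 31.2 and 40.1 FPKM in WT cytoplasms, and Slc26a6 was at 38.1, 34.2 and 34.9 FPKM in Mtr4-null cytoplasms, against 35.9, 31.1 and 33.9 FPKM in WT cytoplasms. Dclk1 was the 1 member among 9 genes of the doublecortin family. Dclk2 was at 183.2, 190.4 and 172.8 FPKM in Mtr4-null cytoplasms, against 104.8, 116.6 and 148.4 FPKM in WT cytoplasms, and Dclk3 at 3.95, 2.55 and 2.64 FPKM in Mtr4-null cytoplasms, against 0.154, 0.666 and 0.453 FPKM in WT cytoplasms. Both of these kinases thus stood higher in every Mtr4-null cytoplasm than in any WT cytoplasm, with Dclk1 the other way round. None of the 13 nuclear exosome subunits met the rule, nor did any of the 13 genes of MTR4 partner complexes apart from Skiv2l2 itself.

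Some members share sequence with a copy elsewhere in the genome, and the authors' estimate of their level depends on how fragments were divided between the copies. Of the 67 members with a transcript in the GENCODE annotation, 37 shared no stretch of 50 bases with another gene and 10 shared over 10% of theirs. The highest share was that of Rnaset2a, a copy of the gene for ribonuclease T2, with 77.2% of its stretches in Rnaset2b. Rnaset2a was at 0.00101, 0.000538 and 7.88 FPKM in Mtr4-null cytoplasms, against 22, 18.3 and 24.2 FPKM in WT cytoplasms. Rnaset2b was the reverse, at 11.7, 25.1 and 11.3 FPKM in Mtr4-null cytoplasms and listed at 0 in all WT cytoplasms. Their sum was 11.7, 25.1 and 19.2 FPKM in Mtr4-null cytoplasms, against 22, 18.3 and 24.2 FPKM in WT cytoplasms, and these overlap. In the nuclei Rnaset2b was at 0, 9.76 and 5.19 FPKM in replicates 1, 2 and 3 labelled Mtr4-null and listed at 0 in all WT nuclei. Rnaset2a was at 0.00355, 0.000245 and 0.00880 FPKM in the nuclei labelled Mtr4-null, against 6.22, 0.00974 and 0.0274 FPKM in the WT nuclei. Both copies were thus near 0 in the library labelled Mtr4-null nucleus 1 and in WT nucleus replicates 2 and 3. As in cytoplasm, Rnaset2b was present in replicates 2 and 3 labelled Mtr4-null and in no WT nucleus. The fall of Rnaset2a seen in cytoplasm rested in the nuclei on WT nucleus replicate 1.

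Tuba3b, an alpha-tubulin known from testis, shared 27.4% of its stretches with Tuba3a. Tuba3b was at 1.42, 1.85 and 1.12 FPKM in Mtr4-null cytoplasms, against 14.7, 29.5 and 18.1 FPKM in WT cytoplasms, while Tuba3a was at 65.9, 65.9 and 69.8 FPKM in Mtr4-null cytoplasms, against 19.7, 33.9 and 29.9 FPKM in WT cytoplasms. Their sum was 67.4, 67.8 and 71.0 FPKM in Mtr4-null cytoplasms, against 34.4, 63.4 and 48.0 FPKM in WT cytoplasms, so the sum was not lower. Isoc2a and Isoc2b, copies that share a name but almost no 50-base stretch, summed to 8.41, 13.5 and 9.20 FPKM in Mtr4-null cytoplasms, against 15.8, 15.7 and 15.4 FPKM in WT cytoplasms. For Rnaset2a and Tuba3b a low value of the single copy therefore does not stand for a low value of the pair. Among the Dcpp genes, Dcpp1, Dcpp2 and the sum with Dcpp3 were low, and Dcpp3 itself was not. Dcpp3 was at 2.23, 3.79 and 0.803 FPKM in Mtr4-null cytoplasms, against 1.07, 1.26 and 1.52 FPKM in WT cytoplasms. Dcpp2 shared 35.3% of its stretches with Dcpp3. Dcpp1 was at 0, 0.339 and 0 FPKM in Mtr4-null cytoplasms, against 25.3, 18.3 and 17.6 FPKM in WT cytoplasms, and Dcpp1, Dcpp2 and Dcpp3 summed to 2.23, 4.13 and 0.803 FPKM in Mtr4-null cytoplasms, against 43.2, 38.9 and 33.3 FPKM in WT cytoplasms.

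**Figure D5:**
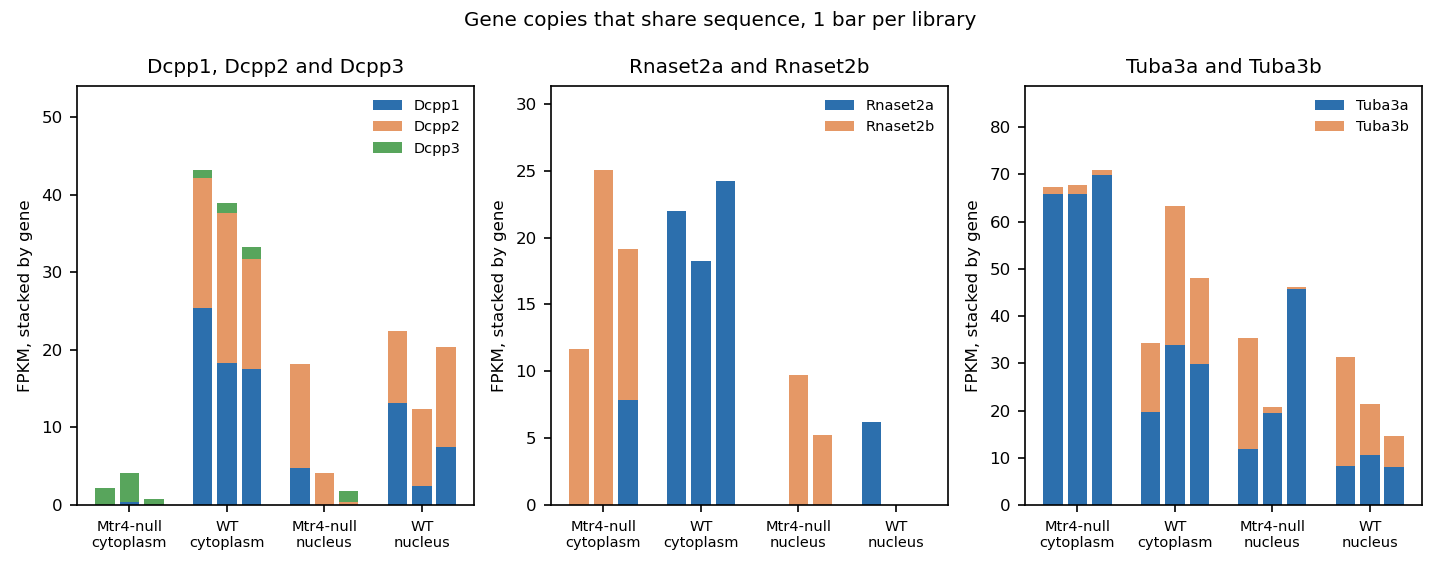
FPKM of gene copies that share sequence, stacked by gene, 1 bar per library and groups labelled below (within a group, replicates 1 to 3). The sum of Dcpp1, Dcpp2 and Dcpp3 was at most 4.13 FPKM in Mtr4-null cytoplasms and at least 33.3 FPKM in WT cytoplasms, while the sums of Rnaset2a with Rnaset2b overlap and that of Tuba3a with Tuba3b is not lower in Mtr4-null.

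All 68 matched a RefSeq entry, 5 of them by an older symbol, and 64 were protein coding, 3 were long noncoding RNAs and 1, Rps19-ps3, was a pseudogene. Among the genes tested with a RefSeq entry, 92.9% were protein coding. Predicted genes and RIKEN clones made up 5.88% of the members and 11.6% of the genes tested, and solute carriers with an Slc symbol made up 5.88% of the members and 1.58% of the genes tested. Members were rarely next to each other: Dcpp1 with Dcpp2 and Btla with Cd200 were the 2 adjacent pairs. The 82 tested neighbours that were not members had a median cytoplasmic log2 ratio of 0.00, with 4 at -1 or below and 6 at 1 or above, beside 3.59% and 6.54% of all genes tested.

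Markers of the cells around the oocyte moved in part with the cytoplasmic contrast. The 13 granulosa markers summed to 20.7 to 26.9 FPKM in Mtr4-null cytoplasms and 34.2 to 41.2 FPKM in WT cytoplasms, and in each genotype 9 of the 13 were below 1 FPKM in all 3 libraries. The 10 theca and stroma markers summed to 0.343 to 1.04 FPKM in Mtr4-null cytoplasms and 1.04 to 1.89 FPKM in WT cytoplasms, and Lum was listed at 0 in both. The 10 blood and endothelium markers summed to 13.8 to 21.6 FPKM in Mtr4-null cytoplasms and 16.7 to 25.2 FPKM in WT cytoplasms, with the haemoglobin genes listed at 0 in both. In nuclei labelled Mtr4-null the granulosa, theca and stroma, and blood and endothelium markers summed to 7.57 to 29.6, 1.35 to 4.08 and 7.97 to 13.1 FPKM. In WT nuclei the same lists summed to 14.9 to 23.0, 3.96 to 37.6 and 8.10 to 12.5 FPKM. The part of these markers in the members' levels was not tested.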

How the data were processed

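The authors deposited 1 table of FPKM for 12 libraries. Per the submitters' processing notes, TopHat2 2.1.1, Cufflinks 2.2.1 and build mm9 were used; their settings, annotation and strand handling were not given in the sources used here. Read depth is unknown, so no counting interval is given. Of 23235 entries, 13157 had at least 1 FPKM in at least 3 libraries and were tested, all members among them. Nuclear differences came from log2(FPKM + 1), which understates the change of low genes, in a fit with 4 group means and a variance trend (limma 3.58.1, R 4.3.3). Two-sided p-values were adjusted over all genes tested (Benjamini-Hochberg), and an adjusted p below 0.05 was a call. The cytoplasm contrast chose the members and was not tested. Values after ± are standard errors for differences and SDs (n = 3) for levels.

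The members, gene lists and roles were chosen with earlier results of these data known. By rule the text names the 20 members with the largest cytoplasmic ratios, the 10 highest in WT cytoplasm, the 5 highest in each nuclear group, those called in the nucleus, sharing a symbol stem or in a fixed list, and 3 entries on each side of the threshold; other genes were chosen after their values were seen. The fit was tested on simulated data in which each gene had the same spread in all groups and no library went against its label. That simulation therefore cannot tell how the fit behaves with the nuclei at hand. Alternatives were another pseudocount, filter, scaling, threshold or library weights, a replicate block, the nuclei alone, and leaving out libraries.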

Additional observations from a re-analysis of the deposited data

How the results depend on the processing

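Shallow nuclei, a library that goes against its label and the likeness of Mtr4-null nucleus replicates 2 and 3 to cytoplasm limit the nuclear results. A share of a library says nothing of absolute amounts. The number of members, 68, became 278 at a pseudocount of 0.1, 109 at 0.5, 160 at a log2 threshold of -1.5 and 15 at -3, and was 62 to 84 when a cytoplasm library was left out. Genes called in the nucleus, 298, became 153 with library weights, 1262 with median-of-ratios scaling, 599 without a filter, 5 with nuclei alone, 102 at a pseudocount of 0.1, 1160 with quantile normalization, 3966 without Mtr4-null nucleus replicates 1 and 3 together, and 125 to 1347 with 1 library left out. Members called, 3, became 0 with library weights, 17 with median-of-ratios scaling, 2 without a filter and 0 with nuclei alone. They became 1 at a pseudocount of 0.1, 12 with quantile normalization, and 0 to 49 with 1 library left out. With a filter on nuclei, only 61 members were tested and 7 were called, beside 368 of 12117 genes. The call of Dclk1 was lost without either of Mtr4-null nucleus replicates 2 and 3 or of WT nucleus replicates 1 and 3 (limma adjusted p between 0.0512 and 0.0824). It was also lost with library weights, nuclei alone and a pseudocount of 0.1 (limma adjusted p = 0.143, 0.307 and 0.0792). The calls of Slc26a5 and Fstl5 were lost without single cytoplasm libraries as well. In an alternative chosen after seeing the data, nuclei alone less the library labelled Mtr4-null nucleus replicate 1, 50 genes and 6 members were called. The members' median difference, -1.14, was -0.47 with library weights, -1.95 at a pseudocount of 0.1, -1.99 without replicates 1 and 3 together, and -1.69 to -0.82 with 1 library left out.

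Direction turned under library weights for Bcat2 (0.29), Ccdc109b (0.22), Trim15 (0.34), Etv5 (0.44), Dydc2 (0.38) and Isg20 (-0.41), and for Dydc2 without Mtr4-null nucleus replicates 1 and 3 together (0.66). With 1 library left out, values ran over both signs for Exd1 (-0.93 to 0.020), Trim15 (-1.51 to 0.12), Dydc2 (-0.98 to 0.68) and Isg20 (-0.29 to 0.64). The cause was not tested. Only part of the named members were followed under each alternative, and Btn1a1, Kcnh8, Pknox2 and Manba, for example, were not. Of the other values of those followed, 547 kept direction and side of the threshold, 74 passed it and 34 lost it.

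The replicate block called 377 genes and 7 members. Deviations from group means correlated at -0.16 to 0.303 between same-numbered libraries. The highest value was that of Mtr4-null nucleus replicate 2 with Mtr4-null cytoplasm replicate 2, against at most -0.176 with the other Mtr4-null cytoplasms. Whether the numbers pair the libraries was not settled.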
